A study of Mus musculus with 18 samples.

Results

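The epidermal growth factor (EGF) family and its receptors were followed through the 3 major cell types of the glomerulus, the filtering unit of the kidney. The 10 genes were the ligands *Egf*, *Hbegf*, *Tgfa*, *Btc*, *Areg* and *Ereg*, the receptors *Egfr*, *Erbb2* and *Erbb3*, and *Errfi1*, an inhibitor of the receptors. Members were the rows of the array table whose gene symbol equalled a listed name, and each of the 10 had 1 transcript cluster, the set of probes that reports a gene. The table held 28856 transcript clusters, of which 25254 carried a symbol.

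EGF family ligands are made as membrane proteins, are released by metalloproteases such as *Adam17*, and bind ErbB receptor tyrosine kinases on the same or on neighbouring cells. Bound receptors pair and signal through the Ras, MAP kinase and PI3 kinase cascades, which induce immediate early genes such as *Egr1*. *Errfi1* (also called Mig6) is itself induced by this signalling, binds the kinase domains of Egfr and Erbb2 and dampens them. In the kidney, *Egf* is known mainly as a product of the thick ascending limb and distal tubule, and *Hbegf* as a ligand made by glomerular cells in injury.

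The study profiled podocytes, mesangial cells and endothelial cells sorted by flow cytometry from dissociated glomeruli of *Cd2ap* mutant mice and wild type controls, with the purpose of describing all 3 cell types in this model of glomerulosclerosis. *Cd2ap* encodes an adaptor protein of the podocyte slit diaphragm. Mutant mice were *Cd2ap*-/- (B6.129X1-*Cd2ap* tm1Shaw/J), a mutation carried by every cell, and all mice were 5 weeks old. Each cell type was gated by a GFP transgene, mesangial cells by *Meis1-GFP* and endothelial cells by *Tie2-GFP*, and the sorted cells of either genotype carried the reporter used for the gate. Each of the 6 groups had 3 arrays, 18 in all, described as biological triplicates. The mesangial control columns were marked with a plus and a minus and the other control columns with a pair of pluses. The sample titles call the mesangial ones control and the others wild type. All were taken as wild type, the genotype the sample records give, and whether the mesangial controls carried a mutant allele was not settled, which touches every comparison made with them. Arrays within a group are called A, B and C by their place in the table.

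Values are linear signals normalized by robust multiarray averaging (RMA), in which a signal of 100 was taken as the minimum for a test. Median signals of the 18 arrays lay between 62.8 and 71.6. All 8 podocyte, all 8 mesangial and all 8 endothelial markers were at 100 or more on every array of their own cell type, but wild type podocyte arrays also had all 8 endothelial and all 8 mesangial markers at 100 or more. Summed signals separated the gates: podocyte markers reached 12487.8 to 15211.2 in podocyte arrays, mesangial markers 6175.8 to 8428.4 in mesangial arrays and endothelial markers 15142 to 17569.1 in endothelial arrays, each above all arrays of the other cell types. Array C of the mesangial wild type stood apart from its group. Its 8 endothelial markers summed to 7678.4, against 2310.2 and 2699.5 on arrays A and B, and its 8 podocyte markers to 3837.9, against 929.3 and 1078.9. Its 8 proximal tubule markers summed to 1397.5, against 429.8 and 432. Most of that sum was 1 gene, *Kap*, at 841.2 against 38.2 and 51.7, and 3 of the 8 reached 100. Wild type podocyte arrays carried more endothelial marker signal, 4331.6 to 5754.4, than podocyte arrays labelled mutant, 761.9 to 2579.7. *Cd2ap* itself averaged 828.9 against 1027 in mesangial arrays, 1498 against 1775 in podocyte arrays and 925.9 against 818.5 in endothelial arrays, mutant before wild type. As it was not lower in the endothelial arrays labelled mutant, every direction given here rests on the labels. In such bulk samples, fewer cells of a type and less RNA per cell cannot be told apart.

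*Errfi1*, the inhibitor, was the member that stood out between genotypes: it was 4.98-fold higher in mesangial arrays labelled mutant than in wild type ones. *Hbegf* was 1.52-fold to 1.58-fold lower in all 3 cell types labelled mutant, and *Egf* was 2.15-fold lower in podocyte arrays labelled mutant. No receptor that could be tested passed the screen, with 2 tested in mesangial, 1 in podocyte and 0 in endothelial arrays. The screen, taken from the study's methods, called a gene whose limma p before adjustment was under 0.05 and whose genotypes differed by more than 1.5-fold. In mesangial arrays 7 of the 10 members could be tested, of which 1 was called higher, against 2.08% of all transcript clusters tested, and 1 lower, against 3.12%. In podocyte arrays 5 could be tested, of which 0 were called higher, against 1.26%, and 2 lower, against 4.34%. In endothelial arrays 3 could be tested, of which 0 were called higher, against 2.96%, and 1 lower, against 0.865%. After Benjamini-Hochberg adjustment over all transcript clusters, limma kept only *Errfi1* in mesangial arrays at an adjusted p under 0.05. The median log2 fold change of the tested members was 0.15, -0.07 and -0.03 in mesangial, podocyte and endothelial arrays, beside -0.03, -0.04 and 0.07 for all transcript clusters tested.

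**Figure D1:**
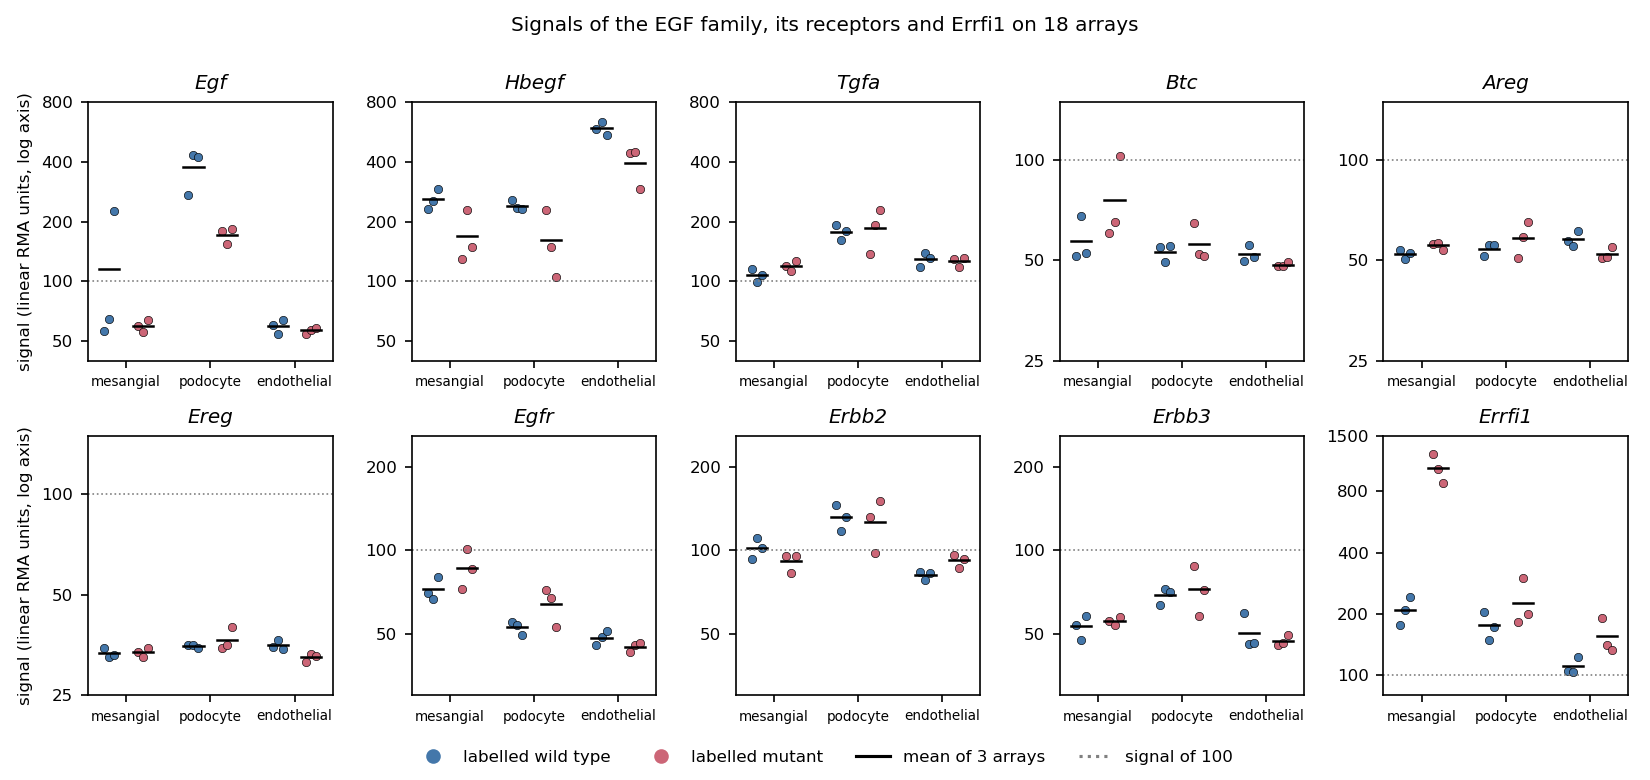
Signal of each of the 10 members (linear RMA units on a log axis) on the 18 arrays, by cell type and labelled genotype. Points are arrays, bars are means of 3 arrays, and the dotted line is the signal of 100; *Errfi1* in mesangial arrays labelled mutant lies between 881.4 and 1216.1, above every other *Errfi1* value.

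Mesangial genotypes did not overlap for 2 tested members, *Errfi1* (higher in those labelled mutant) and *Hbegf* (lower), while 28.6% of all transcript clusters tested there did not overlap in either direction. The podocyte count was 2 lower, against 21.3%, and the endothelial count was 1 higher and 1 lower, against 25.1%. With so few members tested, they are described by their own values.

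*Hbegf*, the heparin-binding ligand, had its highest signals in endothelial arrays. Wild type endothelial arrays read 582.8, 634.2 and 542.6 (587 ± 45.9, SD, n = 3). Mesangial wild type arrays read 232.4, 253.7 and 292.9, and podocyte wild type arrays 257.7, 232.5 and 229.9. Endothelial arrays thus lay above the other two cell types with a wide gap. Compared with endothelial cells, the wild type signal was 2.44-fold lower in podocytes (limma adjusted p = 2.04e-05) and 2.27-fold lower in mesangial cells (limma adjusted p = 3.74e-05). Podocytes and mesangial cells differed by -0.11 on the log2 scale (95% interval -0.35 to 0.14, limma adjusted p = 0.488).

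In the mutant, *Hbegf* read 439.1, 448.1 and 289.6 in endothelial arrays. All 3 lay below the lowest wild type array, and the log2 fold change was -0.61 (SE 0.17, limma adjusted p = 0.146). Mesangial arrays labelled mutant read 130, 227.3 and 148.6, also all below the lowest wild type array, a log2 fold change of -0.66 (SE 0.21, limma adjusted p = 0.148). Podocyte arrays labelled mutant read 229, 148.4 and 105.5, a wide spread whose highest value nearly met the lowest wild type value of 229.9. The podocyte log2 fold change was -0.65 (SE 0.26, limma adjusted p = 0.329).

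All 3 differences passed the screen, sat close to the 1.5-fold line and did not pass the adjusted test. The endothelial call was lost without mutant array C (-0.40) or wild type array B (-0.55) and when array medians were subtracted (-0.53). The mesangial call was lost without mutant array A (-0.49), mutant array C (-0.59) or the wild type array C that stood apart (-0.57). The podocyte call was lost on leaving out any array other than mutant A, with log2 fold changes from -0.94 to -0.38 over the 6 omissions. Differences between cell types in the *Hbegf* change were 0.01, 0.05 and 0.04 on the log2 scale, with 95% intervals as wide as -0.73 to 0.75.

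*Hbegf* was set beside the endothelial marker signal. Podocyte arrays labelled mutant A, B and C had endothelial marker sums of 2579.7, 1184.4 and 761.9, in the same order as their *Hbegf* signals. Wild type podocyte arrays, at 4835.1, 5754.4 and 4331.6, did not share the order of their *Hbegf* signals. The 8 mesangial markers summed to 4605.2, 3427.5 and 1499 in podocyte arrays labelled mutant and 3379.9, 2984.6 and 2634.7 in wild type, in both in the order of *Hbegf*. Of the 8 endothelial markers, 7 were called lower in podocyte arrays labelled mutant, with a list median of -1.71 on the log2 scale. In mesangial arrays labelled mutant, the endothelial marker sums were 2514.4, 2425.6 and 2163.3, in another order than *Hbegf*. The mesangial wild type sums were 2310.2, 2699.5 and, for array C, 7678.4, in the same order as *Hbegf*. Of the 8 endothelial markers, 2 were called lower in mesangial arrays labelled mutant, *Tek* and *Ehd3*, and *Ehd3* read 300.9, 262.3 and 309.5 against 618.1, 517.2 and 581. The mesangial markers also summed lower without overlap, to 6175.8, 6549.5 and 7173.8 in mesangial arrays labelled mutant and 7414.1, 8428.4 and 7419.5 in wild type. Of these 8 markers 2 were called lower, *Itga8* (log2 fold change -0.59) and *Des* (-0.64). The 2 called higher were *Acta2* (1.07) and *Tagln* (0.88), of which *Tagln* overlapped between genotypes. Without a call, *Pdgfrb* and *Gata3* were lower and *Meis1* was higher, each without overlap, so the list went both ways. Within the endothelial arrays the marker sums were 16709.6 to 17569.1 in those labelled mutant and 15142 to 16878.9 in wild type, so there *Hbegf* was lower while the markers were not. Leukocyte markers summed to 822.9, 810.8 and 554.8 in endothelial arrays labelled mutant and 492.7, 529.1 and 531.6 in wild type, higher without overlap. *H2-Aa*, a class II antigen-presenting gene of that list, read 121, 271.2 and 141.2 against 71.3, 49.5 and 54.9, and as it reached 100 only in those labelled mutant this is a description. Leukocyte sums were 520.6, 871.2 and 464.4 in mesangial arrays labelled mutant and 472.6, 423 and 1037.8 in wild type. In podocyte arrays they were 753.1, 546 and 549.2 against 514.8, 921.2 and 615.1. In both mesangial groups and in podocyte arrays labelled mutant, the array with the highest leukocyte sum had the highest *Hbegf*. In the other groups it did not. The part of endothelial, mesangial or leukocyte RNA in the differences of *Hbegf* and of the other genes in these arrays was not tested.

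**Figure D2:**
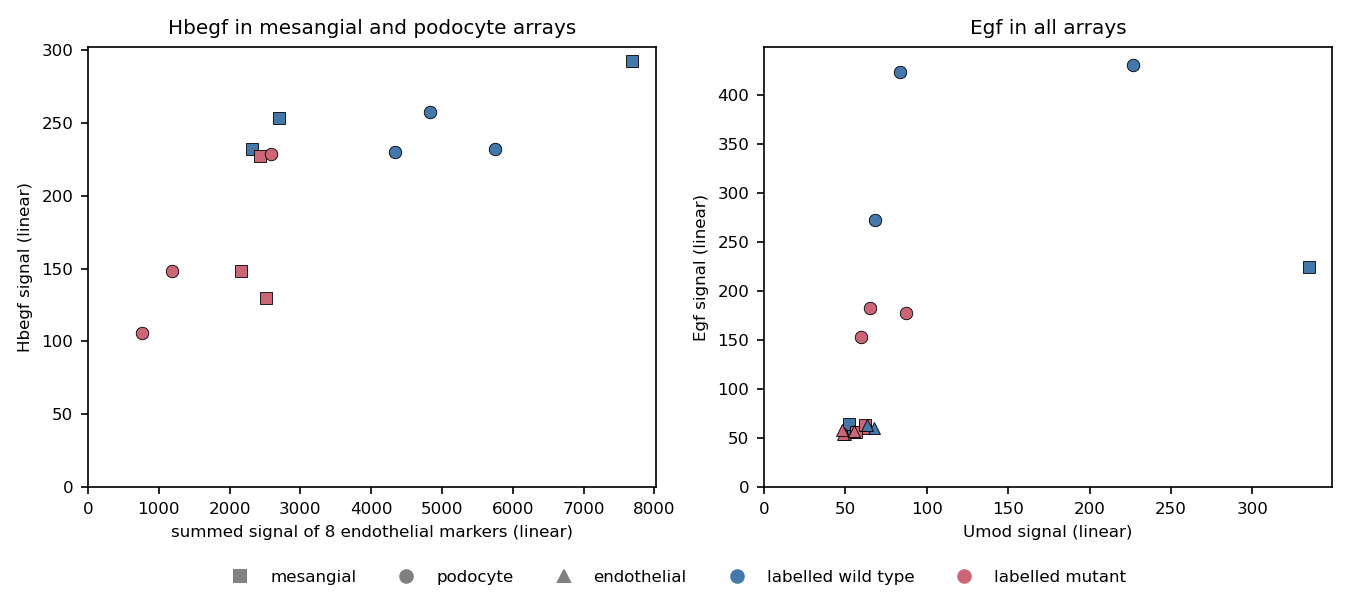
Left, *Hbegf* signal against the summed signal of 8 endothelial markers on the mesangial and podocyte arrays; right, *Egf* signal against *Umod* signal on all 18 arrays (linear RMA units, each point 1 array). The mesangial wild type array with an *Egf* signal of 225.2 is the array with a *Umod* signal of 334.6, and the podocyte wild type array with the highest *Egf*, 430.5, is the podocyte array with the highest *Umod*, 226.4.

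*Egf*, the founding ligand of the family, had its high signals in podocyte arrays. Wild type podocyte arrays read 272.4, 430.5 and 423.6 (376 ± 89.4, SD, n = 3), and podocyte arrays labelled mutant 178.2, 153.5 and 182.8 (172 ± 15.7, SD, n = 3). No mutant value reached the lowest wild type value. The log2 fold change was -1.10 (SE 0.20, 95% interval -1.57 to -0.64, limma adjusted p = 0.135). Omitting any 1 of the 6 arrays left it between -1.32 and -0.99, and the call by the screen held each time.

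Endothelial arrays read 54.4 to 63.7 for *Egf*, all below 100. Mesangial arrays read 60, 56 and 63.8 in those labelled mutant and 56.7, 64.8 and 225.2 in wild type. The single high value was that of wild type array C, and without that array no mesangial array reached 100 and *Egf* could not be tested there. With it, the mesangial log2 fold change was -0.65 (SE 0.49, 95% interval -1.82 to 0.52, limma adjusted p = 0.49). In wild type arrays, *Egf* was at least 3.68-fold higher in podocytes than in endothelial cells (limma adjusted p = 0.00127), a bound against the signal of 100 because every endothelial array lay below it. In that pair only podocyte arrays reached 100, so the call of *Egf* is a description. Against mesangial cells, of which only array C reached 100, the measured log2 difference was 1.97 (limma adjusted p = 0.00912). Without array C it was 2.60, against signals that were all below 100, so its size is a description.

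The summed signal of thick ascending limb and distal tubule markers was lower, as *Egf* was, in the podocyte arrays labelled mutant. The 8 markers summed to 1186.9, 1611.6 and 1346.6 in wild type and 1180.7, 940.5 and 1034 in the podocyte arrays labelled mutant. The largest term of each sum was *Wnk1*, a kinase at 618.2 to 1005 on all 18 arrays, and *Wnk1*, *Slc12a3* and *Cldn16* overlapped between the podocyte genotypes. *Calb1*, a calcium-binding protein of the distal tubule, read 51.4, 173.3 and 74.1 in wild type and 25.8, 27.2 and 30.3 in those labelled mutant. It entered the test only through wild type array B, so these signals are given as a description. *Slc12a1*, the salt transporter of the thick limb, read 42.8, 77.7 and 44.1 against 36.5 to 38.2. *Slc12a1*, *Kcnj1* and *Pvalb* were lower without overlap, as *Calb1* was, but were below 100 on all podocyte arrays and not tested. *Umod*, the defining transcript of the thick limb, read 68.5, 226.4 and 83.4 in wild type and 87.2, 59.5 and 65.4 in those labelled mutant, and these overlapped. *Umod*, *Calb1* and *Slc12a1* were each highest on wild type array B, which also had the highest *Egf* signal, with array C close to it in *Egf*. In the mesangial wild type array C, *Umod* read 334.6, against 52.5 to 62.2 on the other mesangial arrays, and *Calb1* read 261.1, against 24.9 to 29.5. Wild type endothelial arrays read 26.2 to 34.6 for *Calb1*, 33.6 to 36.3 for *Slc12a1* and 49.5 to 67.4 for *Umod*. All these lay below the wild type podocyte arrays, as *Egf* did, while *Cldn16* and *Wnk1* overlapped. The part of tubule RNA in the podocyte differences of *Egf*, between genotypes or between cell types, was not tested.

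*Tgfa*, transforming growth factor alpha, which binds Egfr, was near or above 100 on all arrays and differed little between genotypes. Wild type podocyte arrays read 191.6, 161 and 179.2, and those labelled mutant 137.8, 191 and 229.3. Mesangial arrays read 115.6, 99.1 and 108.1 in wild type and 119.3, 112.5 and 127 in those labelled mutant. Endothelial arrays read 117.9, 138.8 and 131.4 in wild type and 129.9, 118.7 and 130.8 in those labelled mutant. The genotypes overlapped in each cell type.

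The genotype difference of *Tgfa* on the log2 scale was 0.04 in podocytes (95% interval -0.42 to 0.50), 0.15 in mesangial cells (-0.07 to 0.38) and -0.03 in endothelial cells (-0.26 to 0.20), with limma adjusted p = 0.939, 0.401 and 0.887. Between wild type cell types it was 1.65-fold higher in podocytes than in mesangial cells (limma adjusted p = 0.000809). It was 1.37-fold higher in podocytes than in endothelial cells (limma adjusted p = 0.00716), which passed the adjusted test and not the fold limit.

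The other ligands were low. *Btc* (betacellulin), which binds Egfr and Erbb4, reached 100 only on mesangial mutant array C, at 102.8, beside 60.4 and 65.1 on mutant arrays A and B and 51.5, 67.9 and 52.7 in wild type. Its mesangial log2 fold change was 0.38 (95% interval -0.15 to 0.90, limma adjusted p = 0.374), and on the podocyte and endothelial arrays it read 48.1 to 64.7. *Areg* (amphiregulin) read 50.5 to 65.2 and *Ereg* (epiregulin) 31.3 to 40 over all 18 arrays, so neither was tested. A signal below 100 does not show that a transcript was absent.

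Among the receptors, *Erbb2*, the partner that binds no known ligand itself, was highest in podocyte arrays. Wild type arrays read 145.7, 117.8 and 131.7 in podocytes, 93, 110.7 and 102.1 in mesangial cells and 83.5, 78 and 82.9 in endothelial cells. These ranges did not overlap. *Erbb2* was at least 1.31-fold higher in podocytes than in endothelial cells, whose arrays were all below 100 (limma adjusted p = 0.000706). That bound is under the fold limit, and the call of *Erbb2* rests on the measured ratio of 1.61-fold against those low signals. The step from mesangial to podocyte cells was 1.29-fold (limma adjusted p = 0.0271). That from endothelial to mesangial cells was at least 1.017-fold, with a measured ratio of 1.25-fold to the low endothelial signals (limma adjusted p = 0.0424). Both steps were under the fold limit. Over the alternatives run, including omission of single arrays, those adjusted p-values reached 0.09 and 0.145, and without mesangial wild type array C they were 0.0548 and 0.0845.

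Between genotypes, *Erbb2* read 132.6, 98 and 150.4 in podocyte arrays labelled mutant, around the wild type range. The log2 fold change was -0.07 (95% interval -0.50 to 0.36, limma adjusted p = 0.893). Mesangial arrays labelled mutant read 95.8, 83.2 and 95.1, a log2 fold change of -0.16 (95% interval -0.41 to 0.09, limma adjusted p = 0.427). That test was made possible by wild type arrays B and C alone, against signals all below 100, so its size is a description. Endothelial arrays labelled mutant read 96.5, 86.1 and 93.4, all above the wild type arrays, but every value was below 100 and no test was made.

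*Egfr*, the receptor of Egf, Tgfa and amphiregulin, had its highest signals in mesangial arrays. Wild type arrays read 70.1, 66.9 and 80.2 in mesangial cells, 55.1, 53.6 and 49.6 in podocytes and 45.3 to 50.9 in endothelial cells. Mesangial arrays labelled mutant read 72.8, 101 and 85.4, which overlapped the wild type range. The mesangial log2 fold change of *Egfr* was 0.25 (SE 0.14, 95% interval -0.09 to 0.58, limma adjusted p = 0.363), a test made possible by array B alone. Podocyte arrays labelled mutant read 72.2, 67.5 and 53, below 100 and untested. *Erbb3*, the neuregulin receptor with a weak kinase, read 45.6 to 87.9 on the 18 arrays and was not tested in any cell type.

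*Errfi1* carried the clearest genotype difference. Mesangial arrays labelled mutant read 1216.1, 1032 and 881.4 (1043 ± 168, SD, n = 3), and wild type ones 176.4, 208.7 and 242.8 (209 ± 33.2, SD, n = 3). The lowest mutant value was far above the highest wild type value. The log2 fold change was 2.32 (SE 0.16, 95% interval 1.93 to 2.70, limma adjusted p = 0.00299). By size it was number 9 among the increases of the 11457 transcript clusters tested. Omitting any 1 of the 6 arrays left it between 2.20 and 2.43, with 2.43 without the wild type array C that stood apart.

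The same gene moved less in the other cell types. Endothelial arrays read 192, 140.3 and 133.5 in those labelled mutant and 105.1, 103.3 and 122.7 in wild type, with no overlap. That difference was 1.39-fold (log2 0.48, 95% interval 0.13 to 0.83, limma adjusted p = 0.178), which met the p threshold of the screen and not its fold limit. Podocyte arrays read 181.9, 299.5 and 200.4 in those labelled mutant and 205.5, 149.7 and 172.5 in wild type, and these overlapped. The podocyte log2 fold change was 0.35 (95% interval -0.16 to 0.85, limma adjusted p = 0.497).

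The difference between cell types was tested directly, as an interaction over the 18 arrays. The *Errfi1* change in podocytes differed from that in mesangial cells by -1.97 on the log2 scale (SE 0.28, limma adjusted p = 0.00202), and that in endothelial cells by -1.84 (SE 0.28, limma adjusted p = 0.00355). It was the member called in either test, where 0.717% and 1.07% of all transcript clusters were called. Endothelial and podocyte changes in *Errfi1* differed by 0.13 (95% interval -0.46 to 0.72, limma adjusted p = 0.801), and no member was called in that contrast, where 2.11% of transcript clusters were. For the other 6 members tested, the 18 interaction tests gave limma adjusted p-values of 0.218 to 0.993. *Btc* and *Egfr* entered these tests through 1 mesangial array each and were below 100 on every podocyte and endothelial array, so their tests say little.

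The interaction tests of *Egf* turned on the mesangial wild type array C. With all arrays, the podocyte change in *Egf* differed from the mesangial change by -0.45 (limma adjusted p = 0.784) and the endothelial change differed from the podocyte change by 1.04 (limma adjusted p = 0.218). Without that array the values were -1.09 (limma adjusted p = 0.0259) and 1.04 (limma adjusted p = 0.0239), but every remaining mesangial and endothelial *Egf* signal was below 100, so these are given as values and not as a difference shown between cell types.

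**Figure D3:**
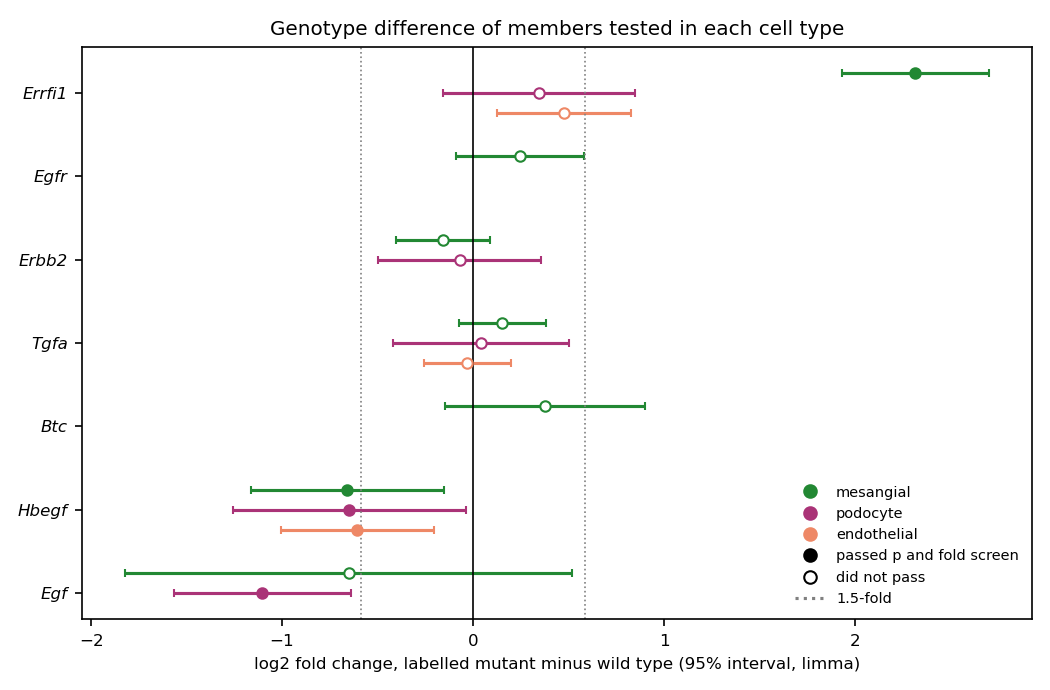
Log2 fold change of each tested member, arrays labelled mutant minus wild type, by cell type. Bars are 95% intervals from limma over 3 against 3 arrays, filled points passed the screen of p and fold change, and dotted lines mark 1.5-fold; the mesangial *Errfi1* interval, 1.93 to 2.70, lies outside the podocyte and endothelial ones.

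Wild type levels of *Errfi1* were also compared between cell types. Mesangial cells were 1.89-fold above endothelial cells (limma adjusted p = 0.00136), and podocytes were 0.66 above endothelial cells on the log2 scale (limma adjusted p = 0.00622), or 0.55 and under the fold limit without podocyte array A. Podocytes and mesangial cells differed by -0.25 (95% interval -0.59 to 0.09, limma adjusted p = 0.241). Over the 5 members tested in wild type arrays, the call required a limma adjusted p under 0.05 and a fold change over 1.5. It took in 2 between podocytes and mesangial cells (*Egf* and *Tgfa*), where 15.1% of all transcript clusters were called. It took in 4 between podocytes and endothelial cells (*Egf*, *Hbegf*, *Errfi1* and, only by its ratio to signals below 100, *Erbb2*), against 21.5%, and 2 between mesangial and endothelial cells (*Hbegf* and *Errfi1*), against 17.5%. Between podocytes and endothelial cells, *Egf* and *Erbb2* reached 100 only in podocytes, so these calls are a description.

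Because *Errfi1* carried the clearest genotype difference, the sequence before its start is shown. The RefSeq promoter table (GRCm38.p6) held 7 of the 10 members and 2 starts for *Errfi1*, both on the plus strand of chromosome 4. The 250 bases before the inner start, chr4:150854820-150855069, and before the outer start, chr4:150853546-150853795, read as follows, 5′ to 3′, with capitals for the motif matches.
Errfi1 inner start: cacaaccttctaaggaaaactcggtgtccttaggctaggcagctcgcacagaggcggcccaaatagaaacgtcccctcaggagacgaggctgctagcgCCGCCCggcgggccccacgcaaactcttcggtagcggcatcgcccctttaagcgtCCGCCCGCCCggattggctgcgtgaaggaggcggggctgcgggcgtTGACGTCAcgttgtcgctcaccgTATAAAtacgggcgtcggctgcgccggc
Errfi1 outer start: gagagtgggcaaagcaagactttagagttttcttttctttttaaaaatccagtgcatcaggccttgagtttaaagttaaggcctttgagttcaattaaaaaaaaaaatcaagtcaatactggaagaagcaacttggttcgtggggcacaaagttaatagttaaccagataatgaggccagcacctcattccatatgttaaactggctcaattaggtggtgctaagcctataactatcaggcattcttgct

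Both strands were searched for 6 motifs. The SP1 motif was spelled GGGCGG and the motif of the EGR1 protein was spelled GCGNGGGCG. The AP-1 motif was read as TGANTCA, where N is any base. The cyclic AMP response element (CRE) was spelled TGACGTCA, the CArG box was searched under its usual definition, and the TATA box was read as TATAAA in these windows. The inner window held a TATA box 28 to 23 bases before the start, a CRE at 51 to 44 bases and 3 SP1 matches on the minus strand, at 152 to 147, 97 to 92 and 93 to 88 bases, the latter pair overlapping. The outer window held none of the 6 motifs. Of 32851 windows of this length, 32.7% held the SP1 letters, 12.4% the TATA box, 1.55% the CRE, 4.7% the EGR1 letters, 6.75% the AP-1 letters and 1.47% the CArG box. Matches describe the sequence and do not show that a factor binds there, and which start was used in these cells was not measured.

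The rest of the pathway was read through 92 listed genes, of which 91 were on the table. In mesangial arrays 69 could be tested, with 5 called higher and 1 lower in those labelled mutant, beside 2.08% and 3.12% of all transcript clusters. In podocyte arrays 68 could be tested, with 1 called higher and 2 lower, beside 1.26% and 4.34%. In endothelial arrays 65 could be tested, with 3 called higher and 0 lower, beside 2.96% and 0.865%. The podocyte and endothelial counts were near those backgrounds. Of the 5 higher mesangial calls, *Ptgs2*, *Myc* and *Egr2* entered the test only through the arrays labelled mutant, as *Egr1* did in podocyte arrays. The higher counts of mesangial and podocyte arrays are therefore a description and show no excess over the background. All the calls that were higher lay in the list of 20 response genes and feedback phosphatases. Of these 20, 14 were tested in mesangial, 12 in podocyte and 13 in endothelial arrays. Some went lower without a call, such as *Jun* (log2 fold change -0.73, limma adjusted p = 0.292) and *Etv5* (-0.48, limma adjusted p = 0.228) in mesangial arrays. Endothelial *Phlda1* was lower without overlap (-0.46, limma adjusted p = 0.19). The other family genes, the ligands *Epgn* and *Nrg1* to *Nrg4* and the receptor *Erbb4*, were below 100 on all 18 arrays, the highest being *Erbb4* in wild type podocyte array B at 83.8.

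Of the response genes, *Ptgs2*, which encodes cyclooxygenase 2, differed most in mesangial arrays. It read 337.2, 525.8 and 246.8 in those labelled mutant and 57, 62.7 and 57.4 in wild type, at least 3.52-fold higher against the signal of 100 (limma adjusted p = 0.00843). On the podocyte and endothelial arrays *Ptgs2* read 42.3 to 58, below the minimum. *Myc*, a growth-promoting transcription factor, read 97.5, 135 and 100.8 in mesangial arrays labelled mutant and 53.8, 55.9 and 48.6 in wild type, at least 1.10-fold higher (limma adjusted p = 0.0204). Mutant array B was the highest mesangial array for both genes. Its leukocyte markers summed to 871.2, against 520.6 and 464.4 on mutant arrays A and C. The part of leukocyte RNA in these differences was not tested. *Ptgs2*, *Myc* and *Egr2* in mesangial arrays and *Egr1* in podocyte arrays entered the test only through the arrays labelled mutant, so their folds are given as bounds and their calls as a description.

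*Egr1*, an immediate early transcription factor, was called higher in all 3 cell types. Mesangial arrays read 194.2, 181.1 and 137.5 in those labelled mutant and 100.7, 98.5 and 93.1 in wild type (log2 fold change 0.80, limma adjusted p = 0.0396). Podocyte arrays read 238.6, 158.2 and 145.6 against 92.2, 98.9 and 83.7, at least 1.76-fold higher (limma adjusted p = 0.143). Endothelial arrays read 257.2, 148.4 and 311.1 against 145.3, 143.8 and 134.4 (log2 fold change 0.69, limma adjusted p = 0.2). The groups did not overlap in any of the 3, and the adjusted test was passed only in mesangial arrays.

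*Ier3*, an immediate early survival gene, was called higher in mesangial arrays (log2 fold change 0.85, limma adjusted p = 0.098) and in endothelial arrays (0.77, limma adjusted p = 0.172). *Egr2* was called higher in mesangial arrays, 112.3 to 121.9 against 60.3 to 85, at least 1.16-fold higher (limma adjusted p = 0.0636). *Dusp6*, the phosphatase that switches off ERK, was called higher in endothelial arrays, 257.1 to 287.1 against 163.9 to 204.8 (log2 fold change 0.61, limma adjusted p = 0.0507). Mesangial *Dusp6* showed -0.28 (95% interval -0.68 to 0.13, limma adjusted p = 0.395).

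**Figure D4:**
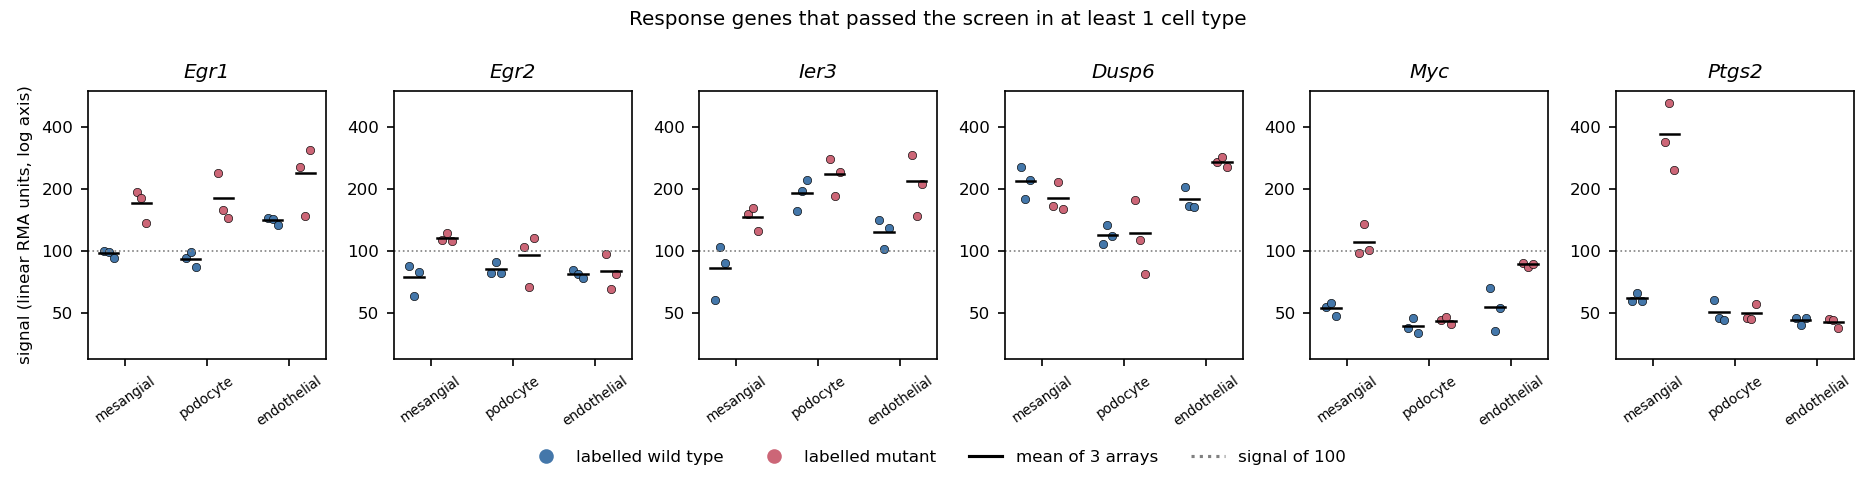
Signal (linear RMA units, log axis) of the 6 response genes that passed the screen in at least 1 cell type, on the 18 arrays by cell type and labelled genotype; points are arrays, bars are means of 3 arrays and the dotted line is the signal of 100. *Egr1* is higher without overlap in all 3 cell types, and *Ptgs2* leaves the range below 100 only in mesangial arrays labelled mutant, at 246.8 to 525.8.

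The 3 lower calls came from the lists of negative control of receptors, release of ligands, and adaptors and cascade. *Spred2*, an inhibitor of Raf activation, read 737.2, 730.8 and 617.6 in mesangial arrays labelled mutant and 1061, 1197.8 and 1056.8 in wild type (log2 fold change -0.67, limma adjusted p = 0.0303), and its other transcript cluster gave -0.36 (limma adjusted p = 0.148). *Adam17*, the protease that sheds several of the ligands, read 255.5, 135.6 and 169.2 in podocyte arrays labelled mutant and 316.5, 317.8 and 294.8 in wild type (log2 fold change -0.78, limma adjusted p = 0.213). Its other transcript cluster went the opposite way, with 0.31 (limma adjusted p = 0.419), so the direction of *Adam17* is uncertain. *Ptk2*, focal adhesion kinase, read 166.1 to 187 against 247.7 to 307.4 in podocytes (log2 fold change -0.66, limma adjusted p = 0.143).

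Profiles over the 18 arrays were compared for *Errfi1*, *Hbegf* and *Egfr*, as a description in which the arrays share cell types and genotypes. Candidates were the 8581 other transcript clusters with 1 symbol and a mean signal of at least 100 (8582 for *Egfr*). Among them, the 5 most like *Errfi1* by Pearson's r of log2 signal were *Ccdc68* (0.951), *Col14a1* (0.941), *Aldh1a2* (0.938), *Ptgs2* (0.938) and *Fam19a1* (0.937). *Ptgs2*, with a mean of 103.5, became a candidate only through the mesangial arrays labelled mutant, where *Errfi1* was also highest. Its r therefore restates the genotype differences given above. For *Hbegf* they included *Syne1* (0.937), *Lphn2* (0.927), *Plk2* (0.92) and *Tmem209* (0.919). For *Egfr* they were *Slit3* (0.93), *Col12a1* (0.93), *Sgms2* (0.921), *Mark1* (0.919) and *Ppp1r14a* (0.918). *Egfr* itself read 43 to 101 and reached 100 on 1 array, so its r values rest on low signals.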

How the data were processed

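RNA of sorted glomerular cells was amplified with Ribo-SPIA and hybridised to Affymetrix Mouse Gene ST arrays (mm9, per the file header). The authors deposited linear intensity values normalized by RMA. Their 18 columns of a second form, equal to log2 of the signal minus the row median within 2e-06, were not used. The series record names Exon arrays and GeneBASE; the header and sample records were followed here. Depth has no meaning for arrays, and 3 arrays a group limit precision.

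Log2 signals were fitted with limma 3.58.1 (lmFit, eBayes) in R 4.3.3, tested on simulated data first. Between genotypes, 6 arrays of a cell type were fitted over transcript clusters that reached a signal of 100 on 1 array or more. The call was p under 0.05 and fold change over 1.5, as in the methods, with Benjamini-Hochberg values beside it. The 9 wild type arrays gave cell type contrasts, and all 18 gave interactions. The members and lists were chosen with earlier results of these data known. All members are named. Pathway genes are named where called without overlap, at most the 6 largest changes per cell type, and the other family genes always. Alternatives were the signal minimum, array scaling, background, eBayes options, all arrays in 1 fit, and leaving out each array. Marker lists of 7 cell types were read beside the results. Collecting duct markers summed to 342.2 to 453.6 and leukocyte markers to 423 to 1037.8 over all arrays. Within endothelial arrays the leukocyte sums were higher without overlap in those labelled mutant, 554.8 to 822.9 against 492.7 to 531.6. The podocyte transgene and a profile neighbour of *Hbegf* are not reported here.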

Additional observations from a re-analysis of the deposited data

Results flagged for a closer look

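The genotype difference of *Errfi1* was not the same in the 3 cell types, by a test of the difference itself. The log2 fold change differed from that in mesangial cells by -1.97 in podocytes (limma adjusted p = 0.00202) and by -1.84 in endothelial cells (limma adjusted p = 0.00355). All 3 mesangial arrays labelled mutant showed it, at 881.4 to 1216.1 against 176.4 to 242.8. Groups of 3 arrays are too small for the check of outlying samples.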

How the results depend on the processing

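Of 731 values recomputed under alternatives, 663 kept their direction and their side of the threshold. *Errfi1* in mesangial arrays and its 2 interactions with mesangial cells kept both in every alternative run. The number of members called in mesangial arrays went from 2 to 1 after Benjamini-Hochberg adjustment, and leaving out each array gave 1 to 2. The podocyte number went from 2 to 1 with no signal minimum, to 1 with quantile normalization once more and to 0 after adjustment, and leaving out each array gave 1 to 2. The endothelial number went from 1 to 0 with array medians subtracted, to 2 with an assumed background subtracted (*Errfi1* at 0.59) and to 0 after adjustment, and leaving out each array gave 0 to 1. The number of members differing between podocyte and mesangial changes was 1 to 2, and between endothelial and podocyte changes 0 to 1, on leaving out each array, the higher counts without mesangial wild type array C. The cause of these shifts was not tested.

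Signs turned for 8 values, of which the endothelial minus mesangial difference in *Egf* was the largest, at 0.58, and it turned without mesangial wild type array C. Subtracting array medians gave *Tgfa* 0.041 in endothelial arrays and *Hbegf* -0.005 for the podocyte minus mesangial change. Leaving out each array gave *Tgfa* -0.12 to 0.24 in podocyte and -0.096 to 0.022 in endothelial arrays, and *Erbb2* -0.20 to 0.11 in podocyte arrays. For differences between cell types it gave *Hbegf* -0.28 to 0.28 (podocyte minus mesangial), -0.11 to 0.29 (endothelial minus mesangial) and -0.23 to 0.33 (endothelial minus podocyte), *Egf* -0.047 to 0.947 (endothelial minus mesangial) and *Errfi1* -0.032 to 0.347 (endothelial minus podocyte). Each member had 1 transcript cluster, so another cluster could not be tried. Without mesangial wild type array C, *Egf* gave no mesangial value. No paired analysis was possible because the labels number the samples without shared replicate numbers. Signals below 100 limit what could be tested for *Areg*, *Ereg*, *Btc*, *Egfr* and *Erbb3*.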
